A study of Danio rerio with 61 samples.

Results

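SAT (Sanger AB Tübingen) is 1 of 7 wild-type zebrafish strains whose cardiac ventricles were profiled before and after cryo-injury. The account here is of the early response of this strain, the change between uninjured ventricles and ventricles at 1 day post cryo-injury (dpci). Libraries were assigned by strain and stage as their titles give them, which left 5 of the 61 libraries, 3 from uninjured SAT ventricles (libraries 3, 4 and 5) and 2 from SAT ventricles at 1 dpci (libraries 36 and 37). The same change was set beside the mean change of 4 other strains (AB, KCL, TL and WIK), for which 24 libraries gave 3 per strain and stage, to ask what was particular to SAT. All fish were adults of matched age without a transgene, SAT, AB, TL and WIK were obtained as embryos from outside stocks, and KCL had been bred in the facility for many generations. The injury was made at the tip of the ventricle with a copper probe cooled in liquid nitrogen, and the controls were uninjured rather than sham operated. RNA came from single ventricles, so each library was 1 ventricle, but the whole ventricle was used, and fewer cells of a type and less RNA per cell cannot be told apart.

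Cryo-injury kills the muscle at the tip of the ventricle, and adult zebrafish replace it over the following weeks. On the first day, damaged muscle and resident cells switch on immediate early transcription factors of the AP-1 family and cytokines that signal through STAT3, neutrophils and then macrophages enter the wound, and a temporary matrix rich in fibronectin is laid down. Cells that secrete much protein raise the chaperones of the endoplasmic reticulum (ER), and heart muscle under strain makes natriuretic peptides and lowers genes of the adult contractile and mitochondrial programme.

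The count tables held 3317954 to 3843819 reads in genes per uninjured SAT library and 3070178 to 3549367 per 1 dpci library. Mitochondrially encoded genes took 64 to 65.8% of the reads before injury and 51.8 to 52.6% after it, of which 1 ribosomal RNA alone took 54.5 to 57.3% and 41.7 to 42.9% of all reads. This left 1193341 to 1338851 and 1481057 to 1680800 reads for nuclear genes. Values below are CPM (reads of a gene relative to the TMM-scaled library size). Each fold change is a log2 value from edgeR's quasi-likelihood fit over all 61 libraries. The standard error (SE) beside it is the absolute log2 change divided by the square root of the F statistic. This SE is therefore derived from the test and is no separate measure of spread. A gene was called when it changed more than 2-fold at a Benjamini-Hochberg adjusted p below 0.05 over 16890 genes. The titles and the time labels of 6 libraries disagreed. Among them were uninjured SAT library 3, labelled 7 days, and SAT 7 dpci library 38, labelled 1 day. Each correlated best with the 4-strain mean of the stage in its title, with r = 0.958 for library 3 (0.947 for 7 dpci) and r = 0.959 for library 38 (0.948 for 1 dpci), over genes of a single library, which are not independent replicates. In the comparison strains, TL 1 dpci library 41 and WIK 1 dpci library 55 were labelled 0 days, and no such correlation was taken for them. The titles were used, and the counts under the other choices are given beside the main ones.

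At 1 dpci, 319 genes were called higher in SAT (1.89% of the genes tested) and 140 were called lower (0.829%). When SAT 7 dpci library 38 was counted as 1 dpci the counts were 200 and 59, and with the 6 libraries of conflicting labels left out they were 102 and 56. With 1 RUVg-type factor, the kind of correction the study's methods name, 2 and 0 genes were called in SAT and 27 and 9 in the 4-strain mean. Of the 86 called genes that the naming rule selected, 22 kept their call when each SAT library was left out in turn. Without 1 dpci library 36, 52 of them lost it, without library 37 27, and without uninjured library 3, 4 or 5 44, 27 and 31. The SAT libraries of the stages did not overlap for 317 of the 319 genes and for 139 of the 140. The calls rest on the same libraries, so this separation follows largely from the call and is no added support. The mean change of AB, KCL, TL and WIK, which rests on 24 libraries, gave 1344 genes called higher (7.96%) and 416 called lower (2.46%). The median SE, over the 6050 genes with a SAT mean of at least 5 CPM at either stage, was 0.39 on the log2 scale for the SAT change and 0.18 for the 4-strain mean, so counts of calls in the 2 are not comparable as they stand. This holds also for the counts given per gene list below, which are to be read beside these shares over all genes. Of the 319 genes, 218 were also called higher in the 4-strain mean (68.3% of the SAT genes and 16.2% of the 4-strain genes), and of the 140 genes 54 were also called lower (39% and 13%). The sign in the 4-strain mean was opposite for 10 and 5 of them. The median change of the 319 genes was 1.95 in SAT and 1.44 in the 4-strain mean, and that of the 140 genes was -1.63 and -0.84, against medians of 0 and 0.11 over all genes tested. Since these genes were chosen by the SAT values, the larger SAT medians follow from the choice.

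**Figure D1:**
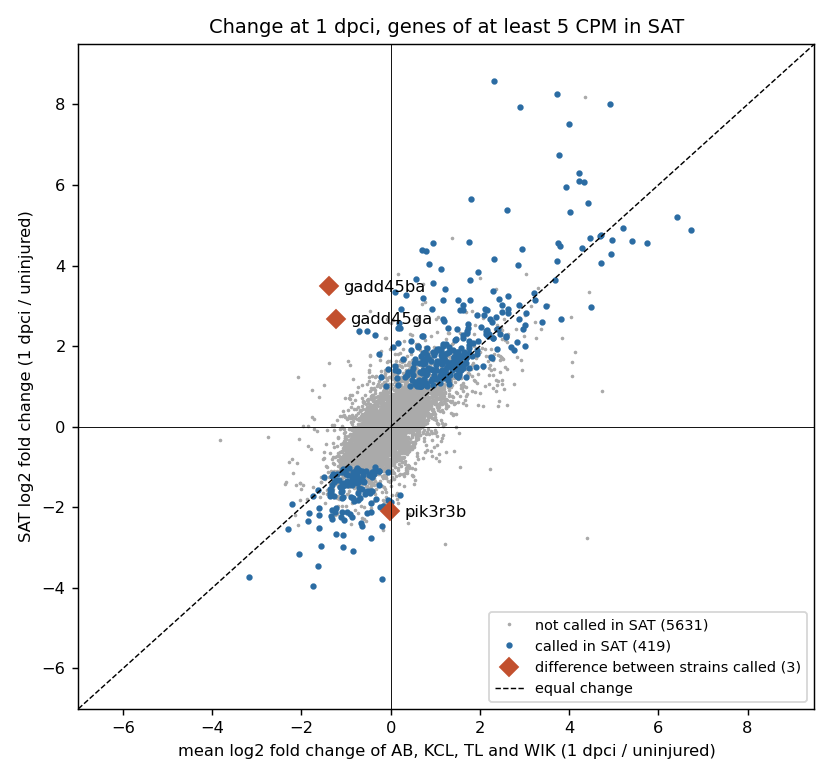
Each point is 1 of the 6050 genes of at least 5 CPM in SAT, with the mean log2 change of AB, KCL, TL and WIK at 1 dpci on the x axis and the log2 change of SAT on the y axis, and the 419 genes called in SAT are coloured. Most called genes lie on the same side of 0 in both, and the 3 genes whose changes differed by the test of the difference are named.

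The largest rises were in genes that were close to absent from the uninjured SAT ventricle. The genes named here are 11 of the 12 with the largest called rise, no overlap between the stages and a mean of at least 5 CPM at either stage, and all of them were also called higher in the 4-strain mean. nppal, a gene of the natriuretic peptide family by its symbol, read 0.30, 0.27 and 0.60 CPM before injury and 31.2 and 33.9 CPM after it. The log2 change was 6.29 ± 1.46 (edgeR adjusted p = 0.0085), and the injured libraries lay within 3 CPM of each other. At 7 dpci nppal read 2.0 to 2.46 CPM, above every uninjured library. ankrd1a, a titin-associated stress protein of heart muscle, read 0, 0.27 and 3.58 CPM before injury and 61 and 58.8 CPM after it. Its log2 change was 5.54 ± 0.98 (edgeR adjusted p = 3.3e-04), again with injured libraries that were nearly equal.

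Of these 11 genes, 5 had no read in any uninjured SAT library, and their fold changes are lower bounds against 3 counts over the group (0.288 CPM). mmp9, the gelatinase that neutrophils and other wound cells release, read 20.7 and 3.23 CPM at 1 dpci, at least 41.6-fold higher (edgeR adjusted p = 0.015). saa, the acute phase protein serum amyloid A, read 11.6 and 4.45 CPM, at least 27.8-fold higher (edgeR adjusted p = 0.029). illr4, a C-type lectin-like receptor gene, read 15.7 and 3.23 CPM, at least 32.9-fold higher (edgeR adjusted p = 0.040). cdaa, a cytidine deaminase gene, read 13.1 and 2.02 CPM, at least 26.2-fold higher (edgeR adjusted p = 0.012). pigrl2.3, a polymeric immunoglobulin receptor-like gene whose symbol is shared by 2 gene IDs, read 1.96 and 9.30 CPM, at least 19.5-fold higher (edgeR adjusted p = 0.0017). These bounds use the mean of the injured libraries, which were unequal, and in all of them except pigrl2.3 library 36 was the higher. The calls of mmp9, illr4 and saa were lost without library 36 or any uninjured library (edgeR adjusted p up to 0.364, 0.446 and 0.266), that of cdaa without library 36 or uninjured library 3 or 4 (up to 0.381), and that of pigrl2.3 without library 37 (0.0538).

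The remaining 4 genes were si:dkey-102g19.3, si:ch211-9d9.1, si:ch1073-67j19.1 and BX908782.2. si:dkey-102g19.3 read 0, 0 and 1.79 CPM before injury and 44 and 31.1 CPM after it (log2 change 5.95 ± 1.18, edgeR adjusted p = 0.0014). BX908782.2 read 0.90 to 1.50 CPM before injury, but 109 CPM in library 36 and 20.01 CPM in library 37, a gap of more than 5-fold between replicates (edgeR adjusted p = 0.035). The same unevenness was seen for si:ch1073-67j19.1, at 16.3 and 1.01 CPM, and for si:ch211-9d9.1, at 22.5 and 4.65 CPM. Of the 319 genes called higher, 214 were higher in library 36 and 105 in library 37, and 74 differed more than 2-fold between the 2. Of the 140 genes called lower, 107 were higher in library 37 and 30 in library 36. Over all 6050 genes of at least 5 CPM, 2764 were higher in library 36 and 3285 in library 37. Library 36 thus lay farther from the uninjured libraries in both directions, and without it 109 genes were called higher and 10 lower, while without library 37 the counts were 279 and 173.

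**Figure D2:**
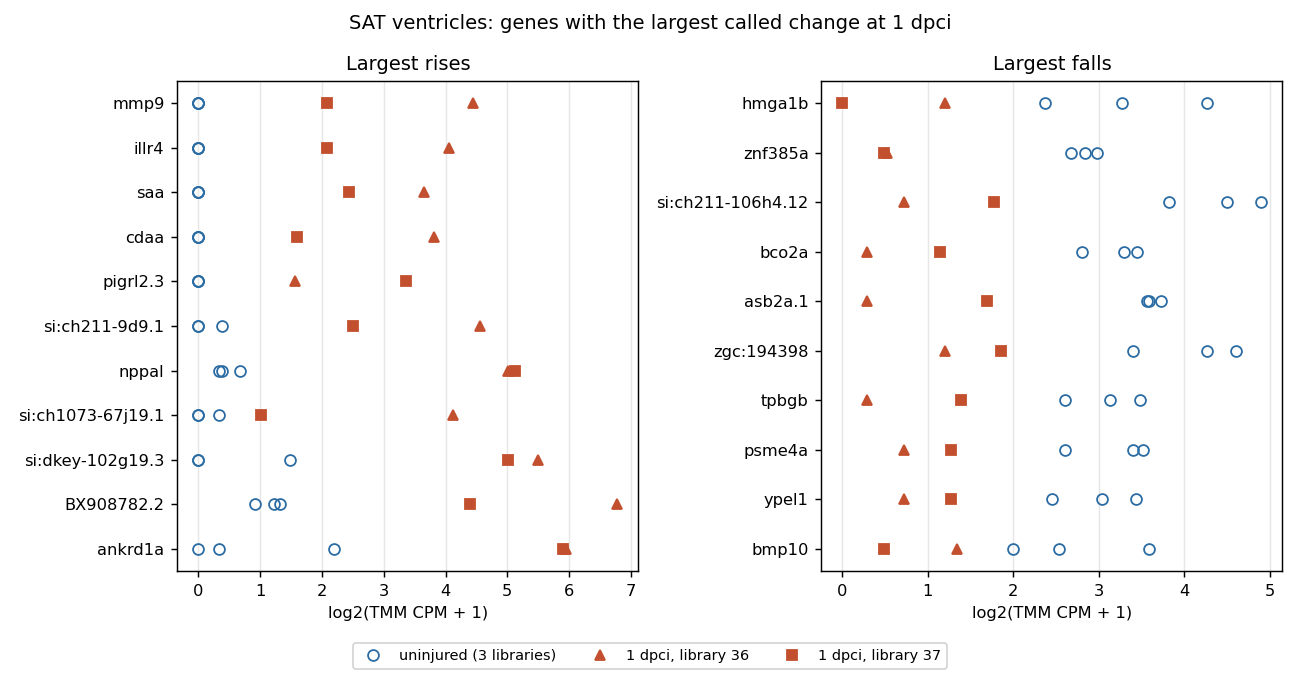
The x axes give log2(CPM + 1) in each SAT library for 11 of the 12 largest called rises (left) and the 10 largest called falls (right), with open circles for the 3 uninjured libraries, triangles for 1 dpci library 36 and squares for 1 dpci library 37. By the rule that chose these genes the injured and the uninjured symbols do not overlap, and mmp9, illr4, saa, cdaa and pigrl2.3 sit at 0 in all uninjured libraries.

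Of 27 genes listed as inflammatory cytokines and STAT3 response, 6 were called higher in SAT and none lower, with a median log2 change of 0.92 (0 over all genes tested), while the 4-strain mean called 6 higher and 1 lower, with a median of 0.78. socs3a, the suppressor of cytokine signalling that STAT3 induces, read 4.80, 14.2 and 17 CPM before injury and 229 and 271 CPM after it. Its log2 change was 4.37 ± 0.91 (edgeR adjusted p = 0.0026), and its paralogue socs3b rose by 3.91 ± 1.0 (edgeR adjusted p = 0.018), from 2.39 to 5.36 CPM to 71.3 and 44.5 CPM. cebpb, a transcription factor of the acute phase response, rose from 3.75 to 7.76 CPM to 46.4 and 44.7 CPM, a log2 change of 3.15 ± 0.72 (edgeR adjusted p = 0.0071). cebpd, a related factor, read 9.59, 28.7 and 20.9 CPM before injury and 134 and 73.8 CPM after it, a log2 change of 2.39 ± 0.60 (edgeR adjusted p = 0.015). The cytokine genes il1b and tnfa, and osmr, a cytokine receptor, were at 0 in all 5 SAT libraries.

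The summed level of the 27 genes was 102 to 185 CPM in uninjured SAT libraries and 773 and 644 CPM in libraries 36 and 37, and 259 to 274 CPM at 7 dpci. The 12 libraries of the 4 strains at 1 dpci reached 240 to 611 CPM, so both injured SAT libraries lay above all of them. The uninjured libraries of the other strains were spread over a wide range. In AB, KCL and TL, the uninjured sums ran from 146 to 979 CPM and overlapped those at 1 dpci, whereas uninjured WIK, at 115 to 148 CPM, lay near uninjured SAT. The change of socs3a was -0.75 in AB, -0.86 in KCL, -0.55 in TL and 4.99 in WIK, with a mean of 0.71. For socs3a the SAT change exceeded the 4-strain mean by 3.67 ± 0.97, which did not pass the test (edgeR adjusted p = 0.29), and for cebpd by 3.10 ± 0.66 (edgeR adjusted p = 0.068). The other tools called this difference of cebpd, with an adjusted p of 0.0067 by DESeq2, 0.047 by limma-voom and 0.026 by limma on the deposited values. Mean cebpd before injury was 77.4 ± 70.9 CPM in AB, 115 ± 57.4 in KCL, 79.8 ± 18.7 in TL and 5.7 ± 3.13 in WIK (SD, n = 3 each).

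**Figure D3:**
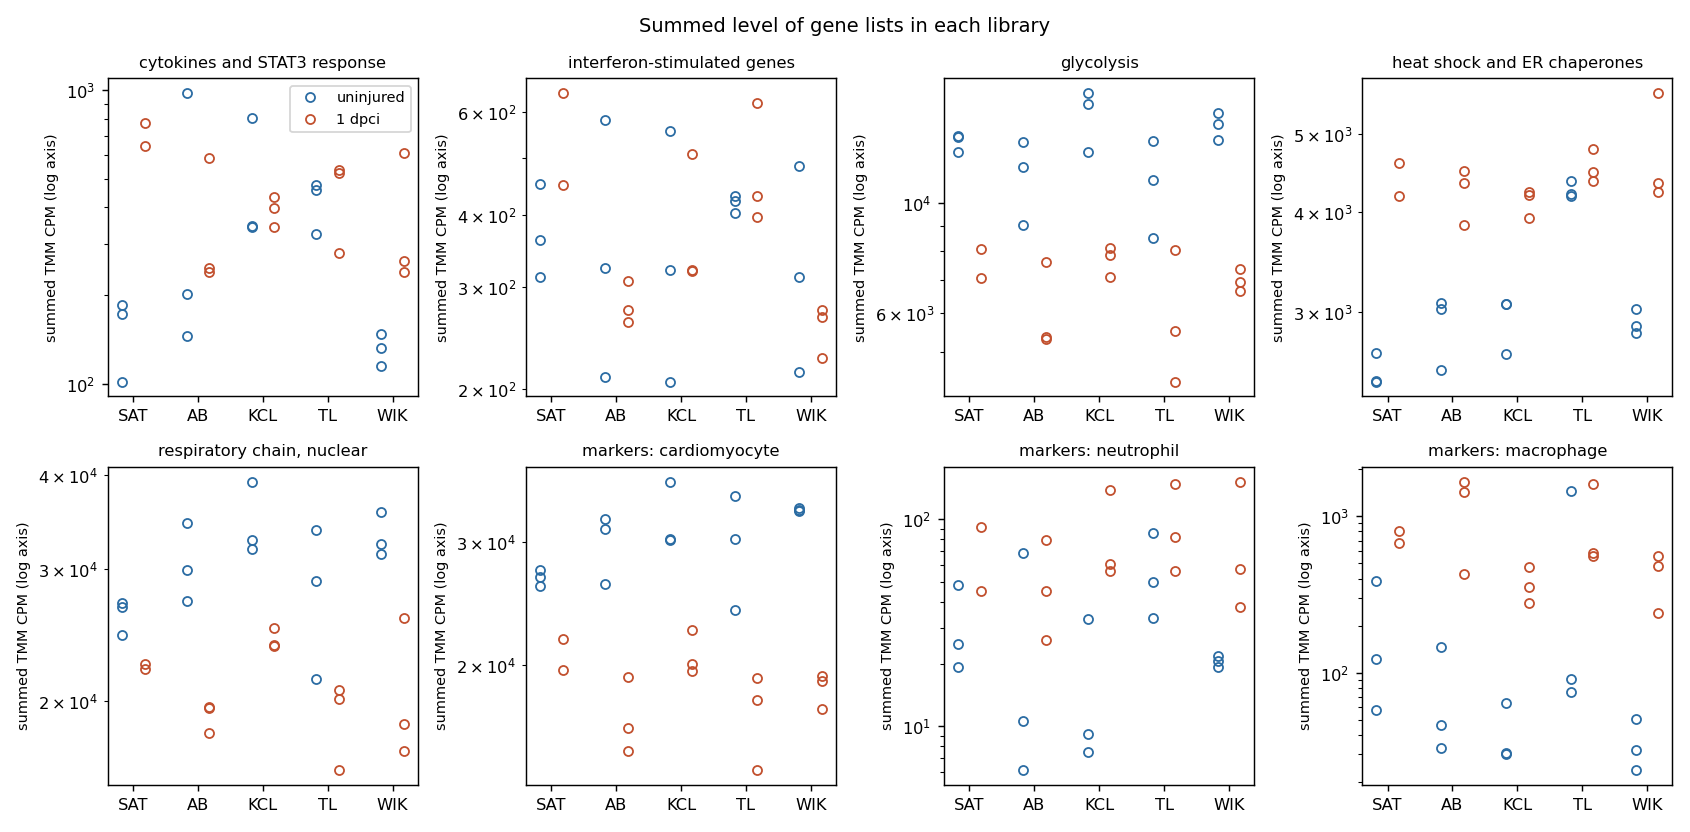
The y axes give the summed CPM of 8 gene lists, on log scales, with 1 point for each uninjured and each 1 dpci library of SAT, AB, KCL, TL and WIK. For the cytokine and STAT3 list the injured SAT libraries stand at 773 and 644 CPM above the uninjured ones at 102 to 185 CPM, and the uninjured AB, KCL and TL libraries spread up to 979 CPM.

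Of 31 AP-1 and immediate early genes, 3 were called higher and 1 lower in SAT, against 10 and 0 in the 4-strain mean. The median change was 0.40 in SAT and 0.77 in the 4-strain mean. Over the 18 members of at least 5 CPM at either SAT stage, chosen by SAT level, the order was reversed, at 0.53 and 0.29. junba, a Jun family subunit, read 0.90, 1.61 and 1.79 CPM before injury and 13.7 and 27.9 CPM after it (log2 change 3.83 ± 0.87, edgeR adjusted p = 0.0072). The Fos family member fosl1a, also known as Fra-1, read 1.50 to 4.18 CPM and then 14.2 and 35.6 CPM (log2 change 3.01 ± 0.84, edgeR adjusted p = 0.032). fosl2, or Fra-2, read 3.28 to 6.59 CPM and then 30.7 and 50.1 CPM (log2 change 2.91 ± 0.72, edgeR adjusted p = 0.014). All 3 were higher in library 37 than in library 36, unlike most of the genes that rose. The member called lower was klf2a, a transcription factor of endothelium under flow, named here after its values were seen, which read 47.4, 35.9 and 18.8 CPM before injury and 8.07 and 12.9 CPM after it (log2 change -1.69 ± 0.43, edgeR adjusted p = 0.016). Its 4-strain mean change was 0.22, and the difference between SAT and the 4 strains did not pass the test (edgeR adjusted p = 0.23). DESeq2 called this difference of klf2a (adjusted p = 0.029), and limma-voom and limma on the deposited values did not.

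Genes of the temporary wound matrix and of its remodelling were among those called higher. Of 25 listed matrix genes 5 were called higher and none lower, with a median change of 0.94 in SAT and 1.72 in the 4-strain mean, where 14 were called higher. fn1a, fibronectin, rose from 0, 0.90 and 1.34 CPM to 21.1 and 20.8 CPM, a log2 change of 4.72 ± 0.81 (edgeR adjusted p = 2.4e-04) beside 4.70 in the 4-strain mean. col12a1a, a collagen associated with fibrils in healing tissue, was read only in 1 uninjured library, at 1.19 CPM, and stood at 20.5 and 13.9 CPM after injury (log2 change 5.37 ± 0.89, edgeR adjusted p = 1.5e-04). It went on to 41.7 to 71.3 CPM at 7 dpci. vcanb, the proteoglycan versican, rose from 0.60 to 2.40 CPM to 5.45 and 15.6 CPM (log2 change 2.59 ± 0.71, edgeR adjusted p = 0.028). Among 16 collagens, 2 were called higher, col5a1 at 1.25 ± 0.36 (edgeR adjusted p = 0.040) and col5a2a at 1.40 ± 0.41 (edgeR adjusted p = 0.044), with a list median of 0.36 (0.66 in the 4-strain mean, 6 called higher). Over all genes tested, 1.89% were called higher in SAT and 7.96% in the 4-strain mean.

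Of 16 metalloproteinases and inhibitors 3 were called higher in SAT and 5 in the 4-strain mean, with medians of 0.23 and 0.80. Over the 8 members of at least 5 CPM at either SAT stage, chosen by SAT level, the medians were 2.45 and 0.96. Beside mmp9, the genes called in SAT were adam8a, a membrane protease of leukocytes, and timp2b, an inhibitor of metalloproteinases. adam8a read 1.50, 1.61 and 6.57 CPM before injury and 47.3 and 113 CPM after it (log2 change 4.64 ± 0.70, edgeR adjusted p = 4.0e-05). timp2b read 3.90, 3.75 and 9.85 CPM and then 145 and 82.9 CPM (log2 change 4.29 ± 0.78, edgeR adjusted p = 5.2e-04). Protease and inhibitor thus rose together, as they did in the 4-strain mean by 4.96 and 4.94. Of 28 annexins and S100 genes, which bind membranes and calcium, 3 were called higher in SAT, anxa2a (from 61.9 to 69.3 CPM to 361 and 201 CPM), anxa5b and s100a10b, and 7 in the 4-strain mean. The shares called higher over all genes tested were 1.89% in SAT and 7.96% in the 4-strain mean.

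The summed macrophage markers were higher in both injured libraries, and the summed neutrophil markers left the uninjured range in library 36 alone. Over 19 macrophage markers the sum was 58, 122 and 386 CPM in the uninjured SAT libraries and 806 and 680 CPM at 1 dpci, and 2 members were called higher (slc7a7 and havcr1) against 17 in the 4-strain mean. Among all genes tested, 1.89% were called higher in SAT and 7.96% in the 4-strain mean. The median change of the list was 0.89 in SAT and 2.5 in the 4-strain mean. Over 13 neutrophil markers the sum was 19 to 48 CPM before injury and 92 and 45 CPM after it, so that library 37 did not leave the uninjured range. The neutrophil markers called higher in SAT were mmp9, which is also listed with the metalloproteinases, and illr4, 2 of the 13, against 10 in the 4-strain mean, with medians of 1.44 and 2.5. grn1, a granulin gene of macrophages, read 11.4, 19.3 and 98.5 CPM before injury and 482 and 385 CPM after it, a log2 change of 3.33 ± 1.0 that missed the threshold (edgeR adjusted p = 0.053). No macrophage or neutrophil marker passed the test of the difference between SAT and the 4 strains. Markers of T, NK and B cells were near 0 throughout (5.36 to 18.8 CPM summed over 11 genes before injury, and 10.3 and 5.86 CPM after it), with lck and pax5 at 0 in all 5 libraries. The part of cell numbers in the rise of wound genes was not tested.

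Of 26 chemokine and receptor genes, 1 was called higher in SAT, against 7 in the 4-strain mean (1.89% and 7.96% over all genes tested), with a median of 0.43 in both. It was ccl34a.4, at 0.60, 2.95 and 0.90 CPM before injury and 51.9 and 23.4 CPM after it (log2 change 4.61 ± 0.85, edgeR adjusted p = 6.7e-04), beside 5.40 in the 4-strain mean. Lysosomal proteases, which macrophages hold in large amounts, were called higher for 5 of 21 genes in SAT and 16 in the 4-strain mean, with medians of 1.21 and 1.28. The cathepsin gene ctss2.1 read 0.30, 4.82 and 2.09 CPM before injury and 32.0 and 75.2 CPM after it (log2 change 4.43 ± 0.72, edgeR adjusted p = 1.1e-04). ctsba, cathepsin B, rose from 22.5 to 60.5 CPM to 122 and 307 CPM (log2 change 2.42 ± 0.71, edgeR adjusted p = 0.045). Both were higher in library 37, the library with the lower macrophage sum.

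Interferon-stimulated genes, which cells raise against viruses, had a median change of 1.17 in SAT and 0.02 in the 4-strain mean, and 24 of 26 were positive in SAT against 14 in the 4-strain mean. Only 2 passed the test in SAT, mxa and mxe, both encoding antiviral Mx proteins, and the 4-strain mean also called 2 higher. Among all genes tested, the shares called higher were 1.89% in SAT and 7.96% in the 4-strain mean. mxa had no read before injury and stood at 1.09 and 7.07 CPM, at least 14.2-fold higher (edgeR adjusted p = 0.0094). mxe likewise had no read before injury and stood at 0.65 and 5.46 CPM, at least 10.6-fold higher (edgeR adjusted p = 0.029). The rise lay mostly in library 37. isg15, a ubiquitin-like protein induced by interferon, read 1.07 to 3.58 CPM before injury and 4.36 and 20.01 CPM after it (log2 change 2.2 ± 0.87, edgeR adjusted p = 0.18). stat1b, the transcription factor of the pathway, read 1.34, 2.40 and 8.66 CPM before injury and 1.09 and 26.7 CPM after it, on either side of the uninjured range (edgeR adjusted p = 0.32). The summed level of the list was 312 to 451 CPM before injury, 450 CPM in library 36 and 648 CPM in library 37. In the 4 strains this sum was 206 to 581 CPM before injury and 226 to 622 CPM at 1 dpci. No interferon-stimulated gene passed the test of the difference from the 4 strains, and for mxa and mxe that test could give little, because uninjured SAT and at least 1 more of the groups compared had no read of them.

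**Figure D4:**
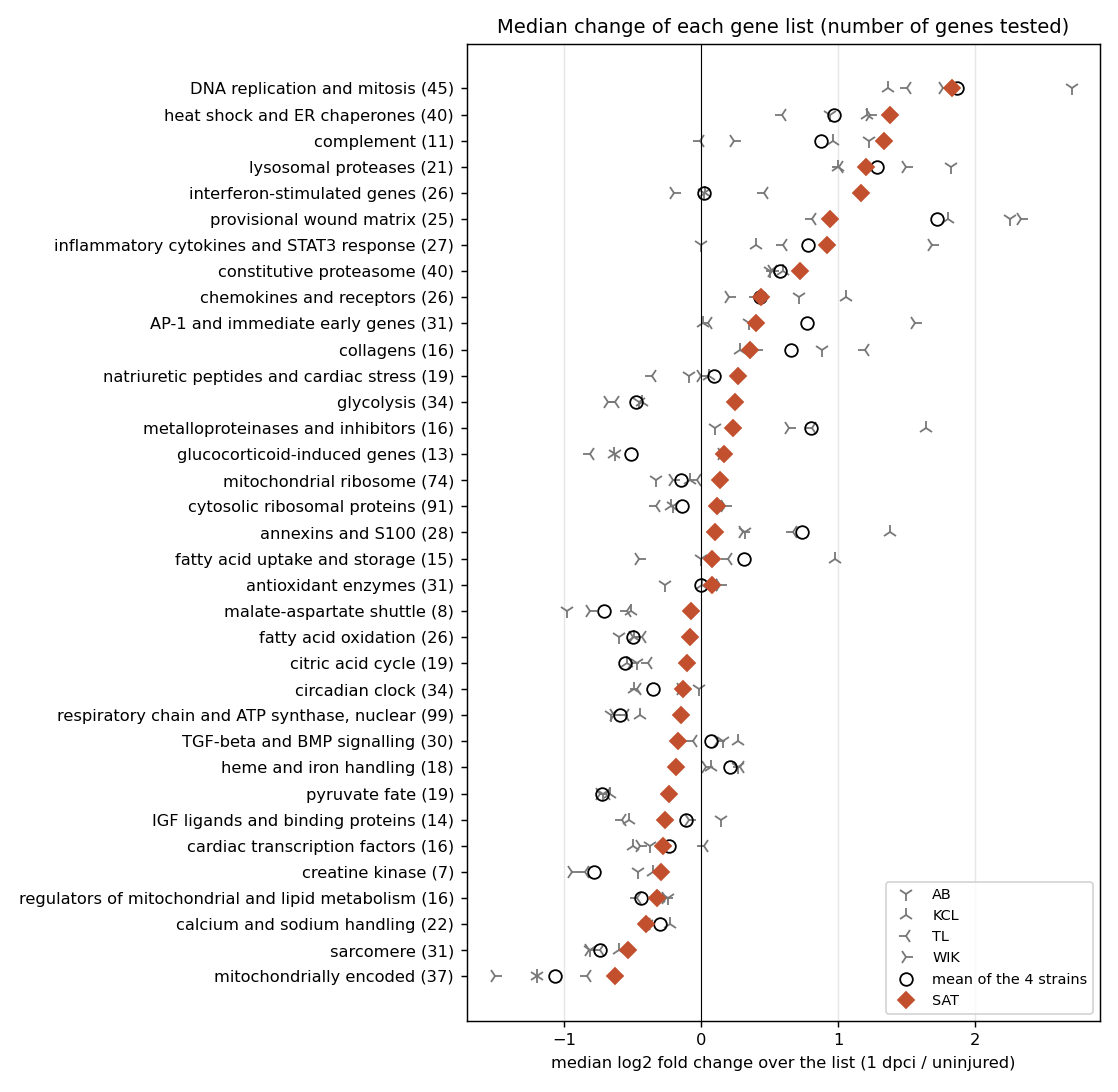
For each gene list the x axis gives the median log2 change at 1 dpci in SAT (diamonds), in AB, KCL, TL and WIK (grey marks) and as the mean of these 4 strains (circles), with the number of genes tested in brackets. The medians lie close together for lysosomal proteases (1.21 and 1.28) and apart for interferon-stimulated genes (1.17 and 0.02) and for glycolysis (0.25 and -0.48). The summed glycolysis level fell in SAT, into the range of the injured libraries of the 4 strains.

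Genes of protein folding and degradation were among those called higher. Of 40 heat shock and ER chaperones, 16 were called higher and none lower, with a median change of 1.38, and the 4-strain mean also called 16 higher, with a median of 0.97. hspa5, the ER chaperone BiP, read 35.7, 42.3 and 37.6 CPM before injury and 224 and 207 CPM after it. The log2 change was 2.48 ± 0.38 (edgeR adjusted p = 4.0e-05), with stages far apart and replicates close together. hsp90b1, the ER form of Hsp90, read 27.5 to 30.8 CPM and then 185 and 127 CPM (log2 change 2.44 ± 0.29, edgeR adjusted p = 5.3e-07). hyou1, a nucleotide exchange factor of the ER, rose by 2.78 ± 0.40 (edgeR adjusted p = 1.9e-05), and dnajb11, a co-chaperone of BiP, by 2.90 ± 0.44 (edgeR adjusted p = 4.0e-05). Their levels had fallen to 4.23 to 11.5 CPM by 7 dpci, from 15.6 to 45.1 CPM at 1 dpci. The summed chaperone level was 2451 to 2664 CPM before injury and 4600 and 4182 CPM after it, and uninjured TL, at 4185 to 4368 CPM, lay at the level of injured SAT.

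Proteasome subunits, which degrade ubiquitin-tagged proteins, were called higher in SAT for 8 of 40 genes, with none called in either direction in the 4-strain mean. Over all genes tested, 1.89% were called higher in SAT and 7.96% in the 4-strain mean. No gene of the list passed edgeR's test of the difference from the 4 strains. The list was taken by symbol and holds psmc3ip, which is not a subunit. Outside the list, psme4a, by its symbol a proteasome activator gene, was called lower in the 4-strain mean and also in SAT. Its SAT log2 change was -3.61 without 1 dpci library 37 and -2.53 without library 36, the extremes when 1 SAT library was left out. The call was lost without either injured library and without uninjured library 3 or 5. The medians were 0.72 in SAT and 0.58 in the 4-strain mean, and 38 and 39 of the 40 genes were positive. psmb7, a catalytic subunit, read 20.4, 18.0 and 23 CPM before injury and 65.4 and 40.6 CPM after it (log2 change 1.37 ± 0.25, edgeR adjusted p = 4.1e-04). Its 4-strain mean change was 0.17, and the difference of 1.2 ± 0.27 did not pass the test (edgeR adjusted p = 0.11). DESeq2 called this difference of psmb7 (adjusted p = 0.0094), and limma-voom and limma on the deposited values did not. psma2 rose by 1.58 ± 0.38 (edgeR adjusted p = 0.011), and psma6l, at 0.80 to 1.2 CPM before injury and 4.36 and 10.5 CPM after it, by 2.91 ± 0.64 (edgeR adjusted p = 0.0048).

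Among 31 antioxidant genes, 2 were called higher in SAT (1.89% over all genes tested). txn, thioredoxin, read 5.10, 6.70 and 12.5 CPM before injury and 98.1 and 55.6 CPM after it (log2 change 3.24 ± 0.49, edgeR adjusted p = 4.0e-05), and prdx6, a peroxiredoxin, rose by 1.34 ± 0.34 (edgeR adjusted p = 0.017). Of 18 heme and iron genes, 2 were called lower in SAT (0.829% over all genes tested). slc40a1, the iron exporter ferroportin, read 36, 41 and 48.1 CPM before injury and 5.89 and 16.6 CPM after it (log2 change -1.88 ± 0.47, edgeR adjusted p = 0.015), and returned to 43.1 to 46.6 CPM at 7 dpci. fth1b, a ferritin heavy chain, fell from 6.97 to 9.55 CPM to 1.96 and 1.82 CPM (log2 change -2.13 ± 0.57, edgeR adjusted p = 0.024). Erythrocyte markers summed to 5778 to 8102 CPM before injury, 1634 CPM in library 36 and 8546 CPM in library 37, and their part in the fall of the iron genes was not tested.

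The 45 genes of DNA replication and mitosis had a median change of 1.83 in SAT and 1.87 in the 4-strain mean, but 3 were called higher in SAT (top2a, mcm4 and mcm6) against 25 in the 4-strain mean. For all genes tested these shares were 1.89% in SAT and 7.96% in the 4-strain mean. Only 7 members had a mean of at least 5 CPM at either SAT stage, with medians of 1.07 in SAT and 1.21 in the 4-strain mean. top2a, the topoisomerase of dividing cells, read 0.27 to 0.30 CPM before injury and 6.10 and 5.25 CPM after it (log2 change 4.16 ± 1.11, edgeR adjusted p = 0.023). mcm6, a subunit of the replicative helicase, read 2.7 to 3.88 CPM and then 12.2 and 12.1 CPM (log2 change 1.93 ± 0.56, edgeR adjusted p = 0.043). No gene of the list passed the test of the difference from the 4 strains.

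Heart muscle genes were called in both directions in SAT, where 1.89% of all genes tested were called higher and 0.829% lower. Of 19 natriuretic peptide and cardiac stress genes 3 were called higher in SAT, ankrd1a, nppb and mustn1b, and the 4-strain mean called 1 higher and 1 lower. The list does not hold nppal, which was also called higher in SAT. nppb, the B-type natriuretic peptide, read 21, 24.1 and 56.7 CPM before injury and 259 and 359 CPM after it (log2 change 3.19 ± 0.82, edgeR adjusted p = 0.018), and read 28.3 to 60.6 CPM at 7 dpci. Its 4-strain mean change was 0.74, with uninjured levels that spread widely in AB (145 ± 201 CPM) and KCL (125 ± 173 CPM, SD, n = 3 each), and the difference did not pass the test (edgeR adjusted p = 0.64). nppa, the atrial peptide, read 605, 1901 and 1903 CPM before injury and 2486 and 2472 CPM after it, which was no called change (edgeR adjusted p = 0.38).

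Of 31 sarcomere genes 1 was called higher and 1 lower, with a median of -0.53 in SAT and -0.74 in the 4-strain mean. desma, the intermediate filament desmin, rose from 215, 243 and 256 CPM to 482 and 486 CPM (log2 change 1.02 ± 0.28, edgeR adjusted p = 0.027), while ldb3b, a Z-disc protein, fell from 798 to 885 CPM to 173 and 545 CPM (log2 change -1.24 ± 0.34, edgeR adjusted p = 0.029). Of 22 calcium and sodium handling genes 2 were called higher and 1 lower in SAT (1.89% and 0.829% over all genes tested). hrc, a calcium-binding protein of the sarcoplasmic reticulum, fell from 96.7 to 107 CPM to 34.9 and 25.9 CPM (log2 change -1.72 ± 0.42, edgeR adjusted p = 0.013), beside -1.75 in the 4-strain mean. atp2a2b, a paralogue of the cardiac calcium pump, rose from 4.78 to 6.43 CPM to 25.3 and 18.6 CPM (log2 change 1.90 ± 0.43, edgeR adjusted p = 0.0064), and kcnh6a, a potassium channel that this list also holds, rose by 2.13 ± 0.61 (edgeR adjusted p = 0.037). nkx2.5, a master regulator of heart muscle and the only called member of 16 cardiac transcription factors, fell from 89.8 to 103 CPM to 29.2 and 56.4 CPM (log2 change -1.17 ± 0.33, edgeR adjusted p = 0.034), the same size as in the 4-strain mean (-1.0). The 12 cardiomyocyte markers summed to 25929 to 27362 CPM before injury and to 19685 and 21752 CPM after it. None of the 12 was called in SAT, and their median change was -0.55 beside -0.95 in the 4-strain mean.

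The 10 genes with the largest called falls in SAT included 7 that were also called lower in the 4-strain mean. hmga1b, an architectural chromatin protein, read 8.69, 18.2 and 4.18 CPM before injury and 1.31 and 0 CPM after it (log2 change -3.96 ± 0.90, edgeR adjusted p = 0.0069), beside -1.74 in the 4-strain mean. si:ch211-106h4.12 read 21.6, 13.1 and 29 CPM and then 0.65 and 2.42 CPM (log2 change -3.73 ± 0.86, edgeR adjusted p = 0.0076), beside -3.18. Both genes were near the floor after injury. bco2a, a carotenoid-cleaving enzyme, fell from 5.97 to 9.89 CPM to 0.22 and 1.21 CPM, and asb2a.1, an adaptor of ubiquitin ligases in muscle whose symbol is shared by 2 gene IDs, from 10.8 to 12.2 CPM to 0.22 and 2.22 CPM. The growth factor gene bmp10, which is made by heart muscle, read 3.0, 11 and 4.78 CPM before injury and 1.53 and 0.40 CPM after it (log2 change -2.69 ± 0.75, edgeR adjusted p = 0.031). With inhbb, an activin subunit that fell from 10.2 to 21.3 CPM to 1.09 and 4.04 CPM (log2 change -2.66 ± 0.68, edgeR adjusted p = 0.016), it made up the 2 called members of 30 TGF-beta and BMP genes. The list median was -0.17 in SAT and 0.07 in the 4-strain mean, which called 4 higher and 3 lower. The shares called lower over all genes tested were 0.829% in SAT and 2.46% in the 4-strain mean.

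Of the 10 falls, 3 were not called in the 4-strain mean, znf385a, zgc:194398 and ypel1. znf385a, a zinc finger protein, read 5.39, 6.16 and 6.87 CPM before injury and 0.44 and 0.40 CPM after it, and 3.23 to 11.8 CPM at 7 dpci. Its SAT change was -3.78 ± 0.78 (edgeR adjusted p = 0.0023) and its 4-strain mean change -0.20. The difference of -3.58 ± 0.83 nevertheless missed the threshold (edgeR adjusted p = 0.12). DESeq2 called this difference of znf385a (adjusted p = 0.031), and limma-voom and limma on the deposited values did not. ypel1 read 4.50 to 9.85 CPM before injury, 0.65 and 1.41 CPM after it and 10.6 to 16.1 CPM at 7 dpci (log2 change -2.75, edgeR adjusted p = 0.036), with -0.43 in the 4-strain mean. zgc:194398 fell by 3.09 on the log2 scale (edgeR adjusted p = 0.012), with -0.85 in the 4-strain mean.

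The called metabolic genes are given list by list, beside 1.89% of all genes tested called higher in SAT and 0.829% called lower. Of 34 glycolysis genes 3 were called higher and 1 lower, with a median of 0.25, against 3 and 5 and a median of -0.48 in the 4-strain mean. hk2, the inducible hexokinase, read 0.30, 1.07 and 0.30 CPM before injury and 15.9 and 12.3 CPM after it (log2 change 4.55 ± 0.96, edgeR adjusted p = 0.0031). gapdhs, a paralogue of the glycolytic dehydrogenase gapdh, rose from 47.1 to 75.6 CPM to 244 and 187 CPM (log2 change 1.84 ± 0.32, edgeR adjusted p = 2.9e-04), and eno1b, an enolase, rose by 2.99 ± 0.80 (edgeR adjusted p = 0.024). In contrast, gapdh, the most abundant member of the list and named here after its values were seen, fell from 9361, 8259 and 9441 CPM to 3361 and 3905 CPM (log2 change -1.31 ± 0.31, edgeR adjusted p = 0.0092). The summed level of the list therefore fell, from 12692 to 13674 CPM to 7053 and 8073 CPM, although its median change was above 0. In the 4 strains this sum was 8501 to 16669 CPM before injury and 4355 to 8091 CPM at 1 dpci. Both injured SAT libraries thus lay inside the range of the injured libraries of the 4 strains.

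Citric acid cycle genes (19 tested) and genes of pyruvate fate (19) had no called member in SAT, with medians of -0.11 and -0.23 beside -0.56 and -0.73 in the 4-strain mean. In SAT the citric acid cycle sum fell from 2763 to 3002 CPM to 2043 and 2238 CPM. The pyruvate fate sum was 1493 to 1998 CPM before injury and 1189 and 1784 CPM after it. Of 99 nuclear genes of the respiratory chain and ATP synthase, 1 was called higher and 1 lower. cox6a1, a cytochrome oxidase subunit of non-muscle type in mammals, rose from 18.5 to 20.1 CPM to 80.7 and 48.9 CPM (log2 change 1.73 ± 0.34, edgeR adjusted p = 0.0012), and cox7a1, the muscle-type subunit in mammals, fell from 949 to 1056 CPM to 421 and 547 CPM (log2 change -1.05 ± 0.26, edgeR adjusted p = 0.015). Both moved as in the 4-strain mean (1.42 and -1.08). The median of the 99 genes was -0.15 in SAT and -0.60 in the 4-strain mean, and their sum fell from 24458 to 26993 CPM to 22438 and 22089 CPM. Uninjured SAT lay below all uninjured AB, KCL and WIK libraries in this sum (27156 to 39239 CPM) and within the TL range (21405 to 33827 CPM), and the injured SAT libraries lay inside the range of the injured libraries of the 4 strains (16157 to 25831 CPM). Of 37 mitochondrially encoded genes, none was called in SAT (median -0.63) and 17 were called lower in the 4-strain mean (median -1.07). Fatty acid oxidation had 1 called member of 26, acad9, a dehydrogenase that also assembles complex I, which rose by 1.24 ± 0.37 (edgeR adjusted p = 0.046).

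The 8-gene malate-aspartate shuttle carries reducing equivalents from the cytosol into mitochondria. None of its genes was called in SAT and 2 were called lower in the 4-strain mean, with medians of -0.07 and -0.71. The sum of the 8 genes nevertheless fell in SAT, from 1783 to 2058 CPM to 1229 and 1429 CPM. In the 4 strains this sum was 1556 to 2512 CPM before injury and 911 to 1669 CPM at 1 dpci. mdh1ab, a cytosolic malate dehydrogenase gene on chromosome 17 (24439532 to 24444402, GRCz11, plus strand), is named because the study names it for SAT. It read 13.5, 7.50 and 6.87 CPM before injury and 4.58 and 25.7 CPM after it, on both sides of the uninjured range, and 4.92 to 7.61 CPM at 7 dpci. Its mean before injury was 9.28 ± 3.65 CPM in SAT (SD, n = 3), and 78.2 ± 26.7 in AB, 60.6 ± 73.9 in KCL, 74.3 ± 14.5 in TL and 88.7 ± 8.51 in WIK. At 1 dpci the other strains had means of 29.5 to 45.3 CPM, and SAT changed by 0.71 ± 0.60 against -1.02 in the 4-strain mean, a difference of 1.73 ± 0.65 that did not pass the test (edgeR adjusted p = 0.68). Its paralogue mdh1aa, at 548 to 785 CPM before injury and 335 and 458 CPM after it, changed by -0.81 ± 0.27 (edgeR adjusted p = 0.093), beside -1.04 in the 4-strain mean.

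Of 15 genes of fatty acid uptake and storage 1 was called higher and 1 lower, and of 14 insulin-like growth factor and binding protein genes 1 was called higher. The 4-strain mean called 2 higher and none lower in the first list, and none in the second. Shares over all genes tested were 1.89% higher and 0.829% lower in SAT, and 7.96% and 2.46% in the 4-strain mean. angptl4, an inhibitor of lipoprotein lipase, read 0, 1.88 and 0 CPM before injury and 6.76 and 16.0 CPM after it (log2 change 4.05 ± 0.96, edgeR adjusted p = 0.010), with 0.86 in the 4-strain mean. fabp3, the fatty acid binding protein of heart muscle, fell from 454 to 826 CPM to 269 and 266 CPM (log2 change -1.27 ± 0.34, edgeR adjusted p = 0.026). igfbp1a, which binds insulin-like growth factors, read 1.49 to 5.36 CPM before injury and 6.98 and 42.2 CPM after it (log2 change 2.93 ± 0.76, edgeR adjusted p = 0.019), with 0.23 in the 4-strain mean. For igfbp1a the difference of 2.69 ± 0.84 did not pass the test (edgeR adjusted p = 0.50). aldh1a2, which makes retinoic acid and marks activated epicardium and endocardium, rose from 9.59 to 20.4 CPM to 84.4 and 64.3 CPM (log2 change 2.28 ± 0.38, edgeR adjusted p = 1.5e-04). It was the only called member of 9 epicardial markers, whose median change was -0.57 (0.32 in the 4-strain mean).

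The test of the difference between the SAT change and the 4-strain mean change called 3 genes, 2 higher (0.0118% of the genes tested) and 1 lower (0.00592%). At an unadjusted p below 0.05 there were 1025 genes (6.07%). The median SE of the difference was 0.43 on the log2 scale over the genes above 5 CPM. For 4041 genes (23.9%) the test could give little, because at least 2 of the 10 groups had no read in any library, and 12 of the 319 genes called higher were among them, none of the 140 called lower. DESeq2 called 15 higher and 11 lower and limma-voom 7 and 4. Over edgeR, DESeq2, limma-voom and limma on the deposited normalized values, 35 genes were called by at least 1 of the 4 tools, 5 by at least 3 (gadd45ba, gadd45ga, pik3r3b, cebpd and, named after its values were seen, fthl27) and 1, pik3r3b, by all.

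gadd45ba and gadd45ga, stress-induced genes whose products bind kinases and cell cycle proteins and act in DNA repair, rose in SAT and fell in the 4-strain mean. gadd45ba (chromosome 11, 6456146 to 6457748, GRCz11, plus strand) read 1.80, 7.23 and 5.97 CPM in uninjured SAT and 91.6 and 21.8 CPM at 1 dpci. Its SAT change was 3.48 (edgeR adjusted p = 0.0073), the 4-strain mean change was -1.38, and the difference was 4.86 ± 0.87 (edgeR adjusted p = 0.013). gadd45ga (chromosome 8, 31367667 to 31369161, minus strand) read 11.7, 11.5 and 12.8 CPM in uninjured SAT and 122 and 32.5 CPM at 1 dpci. Its SAT change was 2.68 (edgeR adjusted p = 0.016), the 4-strain mean change was -1.23, and the difference was 3.92 ± 0.75 (edgeR adjusted p = 0.017). For both genes library 36 gave the larger part of the rise, and without it the calls of the difference were lost. At 7 dpci the SAT libraries read 15.1 to 73.8 CPM for gadd45ba and 39.4 to 113 CPM for gadd45ga, above the uninjured SAT range.

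By value, the strains lay farther apart before injury than after it. Uninjured SAT was lower than the 4-strain mean by 3.10 (log2) for gadd45ba and 2.27 for gadd45ga, and injured SAT was higher by 1.77 and 1.64. Before injury, mean gadd45ba was 56.3 ± 32.2 CPM in AB, 117 ± 24.9 in KCL, 55.1 ± 28.2 in TL and 9.73 ± 0.39 in WIK (SD, n = 3 each). At 1 dpci these means were 8.62, 22.3, 19.6 and 20.3 CPM. For gadd45ga the uninjured means were 97.5 ± 48.7 in AB, 208 ± 33.6 in KCL, 83.7 ± 14.9 in TL and 6.80 ± 2.7 in WIK, and those at 1 dpci were 13.6, 45.3, 29.2 and 20.6 CPM. In WIK both genes started low and rose, by 1.06 and 1.62, so the opposite direction held for AB, KCL and TL and not for WIK.

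pik3r3b, a regulatory subunit of phosphoinositide 3-kinase, fell in SAT and hardly moved in the 4 strains. The gene (chromosome 6, 33537267 to 33558977, GRCz11, plus strand) read 36, 17.4 and 30.1 CPM in uninjured SAT, 5.23 and 7.68 CPM at 1 dpci, and 21.8 to 34.6 CPM at 7 dpci. Its SAT change was -2.1 (edgeR adjusted p = 2.4e-04), the 4-strain mean change was -0.01, and the difference was -2.09 ± 0.39 (edgeR adjusted p = 0.017). Before injury, the other strains had means of 15.1 ± 2.90 CPM in AB, 8.15 ± 0.54 in KCL, 8.62 ± 2.98 in TL and 7.52 ± 1.46 in WIK (SD, n = 3 each), and at 1 dpci 10.8, 9.98, 7.79 and 9.16 CPM. Uninjured SAT thus stood above the 4-strain mean by 1.56 (log2), and injured SAT differed from it by -0.53. The call was lost without 1 dpci library 36 or 37 and without uninjured library 3 or 5.

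**Figure D5:**
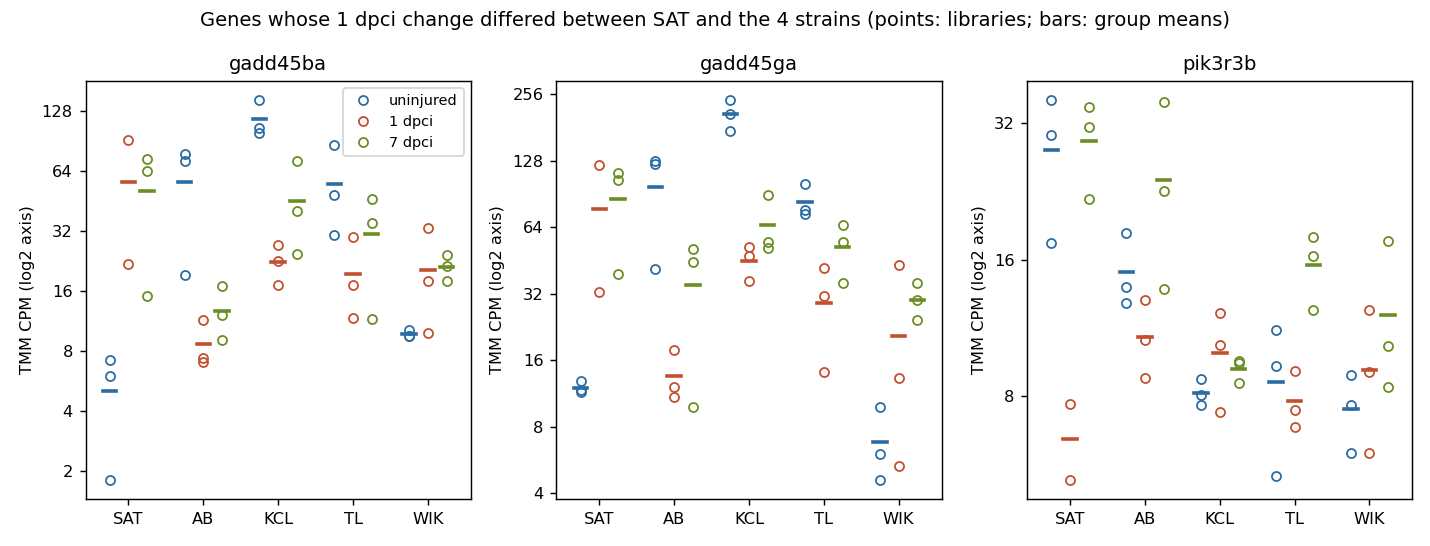
The y axes give CPM on a log scale for gadd45ba, gadd45ga and pik3r3b in every uninjured, 1 dpci and 7 dpci library of SAT, AB, KCL, TL and WIK. Bars are group means. The gadd45 genes rise in SAT and fall in AB, KCL and TL, and pik3r3b lies at 17.4 to 36 CPM in uninjured SAT and at 5.23 and 7.68 CPM in injured SAT.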

How the data were processed

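Ventricle RNA was profiled by 3′ mRNA-seq (QuantSeq FWD). Per the labels and the study's methods, the authors demultiplexed reads with bcl2fastq 2.20.0, trimmed them with Trim Galore 0.6.4 and aligned and counted them with STAR 2.7.6a (GRCz11, Ensembl). The deposited counts per gene are not normalized and cover 32520 genes. The authors also deposited log2 values of normalized expression, which by their range appear to have been logged a second time. They gave coordinates and, after undoing 1 log2 step, an added alternative. Samples took strain and stage from their titles.

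In R 4.3.3, the 16890 genes that reached 1 CPM in any library entered the fit, and edgeR 4.0.16 (TMM, trended dispersion, glmQLFit, quasi-likelihood F-test, 1 mean per strain and stage, all 61 libraries) tested the SAT change, the mean change of AB, KCL, TL and WIK, and the difference of these. Calls need an adjusted p below 0.05 and a fold above 2. DESeq2 1.42.0 and limma 3.58.1 were alternatives, and the scripts were tested on simulated data. Tables and plots used Python 3.11.15 with pandas 2.3.3 and matplotlib 3.10.9. P-values rest on the spread between ventricles within strain and stage, estimated over all 61 libraries. The 2 SAT ventricles at 1 dpci are a small part of it.

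Named genes are the 12 largest called rises and 10 largest called falls (stages not overlapping, mean of at least 5 CPM), the genes called in the difference, up to 4 members per gene list with the largest SAT change (at least 5 CPM), and mdh1ab; klf2a and gapdh were added after their values were seen. Of the 12 rises, 1 is not reported here. Members and lists were chosen with earlier results of these data known. Floors are 3 counts over a group and cover counting error only. NA and TU enter the fit but not the comparison. Promoter and protein sequences were not used here.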

Additional observations from a re-analysis of the deposited data

Results flagged for a closer look

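The change at 1 dpci differed between SAT and the mean of AB, KCL, TL and WIK, by the test of the difference itself, for 3 genes. For gadd45ba, which acts in the response to DNA damage and other stress, the difference was 4.86 on the log2 scale, with a rise of 3.48 in SAT and a fall by 1.38 in the 4-strain mean. For its relative gadd45ga it was 3.92, with a rise of 2.68 in SAT and a fall by 1.23 in the 4-strain mean. For pik3r3b, a subunit of phosphoinositide 3-kinase, it was -2.09, with a fall by 2.1 in SAT and -0.01 in the 4-strain mean. Both injured SAT libraries lay on the same side of the uninjured ones for each gene, but the calls rest on these same libraries. The gadd45 calls were lost without any 1 of the uninjured SAT libraries, and that of pik3r3b without uninjured library 3 or 5. In WIK the gadd45 genes also rose, by 1.06 and 1.62.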

How the results depend on the processing

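The SAT counts of 319 genes higher and 140 lower were 526 and 263 at an adjusted p below 0.1 and a fold above 1.5, 519 and 262 without the low-count filter, 200 and 59 with SAT 7 dpci library 38 counted as 1 dpci, 102 and 56 without the libraries whose label and title differ, and 2 and 0 with 1 RUVg-type factor. DESeq2 called 231 lower and limma-voom 223 lower. All 319 and 140 genes kept their sign in these fits except with the RUVg-type factor, where 300 and 131 did, ldb3b read 0.18 and BX908782.2 -1.04, and in the fit without 1 dpci library 37 (317 of the 319). Leaving out 1 library at a time gave 109 to 322 higher and 10 to 173 lower. Both lowest counts came without 1 dpci library 36, and without uninjured library 3 they were 125 and 62, without library 4 188 and 128. limma-voom shifted the median SAT change by -0.105.

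The difference from the 4 strains (2 higher, 1 lower) gave 4 higher at the looser threshold, 80 and 33 without the filter, 10 and 2 without mitochondrially encoded genes, 0 and 0 without the libraries of conflicting labels, 15 and 11 by DESeq2, 7 and 4 by limma-voom and 4 and 3 by limma on the deposited values. No gene was called lower with only the libraries compared or with library 38 counted as 1 dpci. Without the filter 24170 genes were tested, and without mitochondrially encoded genes 21530. Leaving out 1 library gave 0 to 4 higher and 0 to 1 lower, gadd45ba 3.50 to 5.56 (adjusted p 0.00155 to 0.481), gadd45ga 2.68 to 4.58 (0.00363 to 0.557) and pik3r3b -2.39 to -1.83 (0.0043 to 0.41). The gadd45 calls were lost without 1 dpci library 36 or any uninjured SAT library, and leaving out a library of another strain ended none of the 3 calls. By limma-voom, adjusted p was 0.104 for gadd45ba, 0.0758 for gadd45ga and 0.0273 for pik3r3b, whose call was kept. By edgeR, adjusted p for pik3r3b was 0.0689 with only the libraries compared and 0.647 with library 38 counted as 1 dpci. Without the conflicting libraries, edgeR gave adjusted p of 0.215 for gadd45ba, 0.215 for gadd45ga and 0.22 for pik3r3b.

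The 4-strain mean counts of 1344 and 416 were 2215 and 1603 with no fold limit, 2334 and 1317 at the looser threshold, 27 and 9 with the RUVg-type factor, 305 and 72 on the deposited values and 720 lower by limma-voom, and 1198 to 1410 and 364 to 514 leaving out 1 library. The cause of these shifts was not tested. The limma alternatives were chosen after seeing the data. DESeq2 gave no adjusted p for 8847 genes in the SAT change and 11136 in the difference. For the 86 named and called genes, 840 values kept direction and call under the alternatives that leave out no single library, 190 lost the call and 2 reversed. Leaving out 1 SAT library, 506 values kept the call and 182 lost it. The fits without SAT 7 dpci library 38, 39 or 40, which are not part of the SAT change, lost 0, 0 and 1 calls. For ctsba the call was lost in 6 of 8 fits. For acad9, cfd, desma, fosl1a, mcm6 and ypel1 it was lost in 5, which is without any 1 of the 5 libraries compared. It was lost in 4 for 17 genes, nppb, top2a, vcanb and socs3b among them. No paired analysis was possible because each library came from a single ventricle, so the stages are of different fish. With 2 injured ventricles, 1 of which lay farther from the uninjured ones, counts of SAT calls depend on that library. They depend also on uninjured library 3, without which 125 genes were called higher and 62 lower. Genes near 0 before injury have only a lower bound for their change.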

Other observations

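Of 11 complement genes tested in SAT, 1 was called higher and 1 lower, against 5 and 0 in the 4-strain mean, with medians of 1.33 and 0.87. Over all genes tested, 1.89% were called higher and 0.829% lower in SAT. The 4-strain mean, with its smaller SE, called 7.96% and 2.46%. c6, a component of the membrane attack complex whose symbol is shared by 2 gene IDs, read 26.7, 36.7 and 22.4 CPM before injury and 109 and 56 CPM after it in the gene that was called (log2 change 1.52 ± 0.42, edgeR adjusted p = 0.029). cfd, complement factor D, the protease that starts the alternative pathway, read 53.6, 74.7 and 66.9 CPM before injury and 18.5 and 11.3 CPM after it (log2 change -2.13 ± 0.61, edgeR adjusted p = 0.038), beside -0.98 in the 4-strain mean. Of 8 fits that each left out 1 SAT library, the call of c6 was lost in 3, without 1 dpci library 36 or uninjured library 3 or 5. That of cfd was lost in 5, which is without any 1 of the libraries compared.

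No clock gene of 34 was called in SAT, and 4 were called lower in the 4-strain mean. The medians were -0.13 and -0.35. Of 13 glucocorticoid-induced genes, 1 was called higher in SAT, cebpb, and the medians were 0.16 in SAT and -0.51 in the 4-strain mean. Of 91 cytosolic ribosomal protein genes and 74 mitochondrial ribosome genes none was called in SAT, with medians of 0.12 and 0.14.

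Expression of ckba, the brain-type creatine kinase, rose from 1.50, 4.55 and 3.58 CPM to 35.8 and 17.4 CPM (log2 change 3.02 ± 0.53, edgeR adjusted p = 3.3e-04), the only called member of 7 creatine kinase genes in SAT. tspo, a mitochondrial cholesterol-binding protein listed with the erythrocyte markers, fell from 48.6 to 51.9 CPM to 11.8 and 23.8 CPM (log2 change -1.48 ± 0.34, edgeR adjusted p = 0.0074), the only called member of 18.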
